A study of Mus musculus with 6 samples.

Results

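The genes described here are 38 mouse genes of glycolysis and of the cellular response to low oxygen. They were listed by function, with earlier results of these data known, and read in a table that compares keratinocytes with and without added miR-148a. They comprise 17 glycolytic enzymes, 6 genes of glucose and lactate transport and of the control of flux, 3 genes of the oxygen-sensing machinery (the factor gene Hif1a and 2 prolyl hydroxylases) and 12 genes known to respond to hypoxia. They are 38 of the 25108 genes that could be paired with a symbol. Each gene is represented by its RefSeq transcript with the highest base mean, the authors' mean normalized count over the libraries compared. In the authors' deposited table, 28 of the 38 have an adjusted p-value, 7 have a fold change with no adjusted p, and 3 (Ldhb, Pfkfb3 and Higd1a) are listed at 0.

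The cells were primary epidermal keratinocytes of wild type C57BL/6 pups at postnatal days 1 to 3, kept in EMEM medium with 0.05 mM calcium until 60% confluent. The 3 control libraries came from cells transfected with miR-Control, the study's control, and the 3 libraries of the other group from cells transfected with pro-miR-148a to overexpress the microRNA miR-148a. The labels give 200 nM for the transfection and collection of RNA 48 h later, and they name no change of oxygen or glucose in either group. The labels do not say whether the libraries of a group came from separate cultures, litters or animals, so p-values measure the spread between these libraries, which may be technical. No value per library was used here, because the table holds only the comparison. Errors below are the deposited standard errors (SE) of log2 fold changes, and library depth is unknown. In the authors' deposited table, the basal keratin gene Krt5 stood at 630448 (base mean), its partner Krt14, with 3 transcripts, at 40.3, and the lineage factor gene Trp63, with 8, at 0. Of 10 tested keratinocyte markers 1 (Krt5, 0.49 ± 0.06, log2, SE) rose and 4 fell, the surface protein gene Epcam by the most (-1.21 ± 0.06), per the authors' deposited table. The other falls were smaller, with Dsp at -0.18 ± 0.06, Sfn at -0.21 ± 0.06 and Cdh1 at -0.21 ± 0.06 (log2, SE) per the authors' deposited table. Fibroblast markers fell in 6 of 10 tested genes, collagen Col1a2 at -0.43 ± 0.09 (log2, SE), and rose in none, per the authors' deposited table. Of 4 tested immune markers 3 fell, among them the complement gene C1qa 6.59-fold (base mean 19.4) and the lysozyme gene Lyz2 6.18-fold (base mean 43.8), per the authors' deposited table. Of 2 tested endothelial markers the VEGF receptor gene Kdr rose 6.65-fold (base mean 438) and Vwf fell 1.75-fold (base mean 104), per the authors' deposited table. Cdh5, a further endothelial marker with 1 transcript, had a base mean of 0.332 and no adjusted p. Of 5 tested melanocyte markers 1 fell, Mlana by 1.44-fold, per the authors' deposited table. These marker counts stand beside 16.7% higher and 16.8% lower over all tested genes. At base means of 100 or more 26.4% of all tested genes rose and 23.3% fell. The part of these cell types in the results below was not tested. In such bulk libraries fewer cells of a type and less RNA per cell cannot be told apart.

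Glycolysis breaks glucose down to pyruvate in the cytosol and yields ATP without oxygen, and lactate dehydrogenase turns the pyruvate to lactate so that the pathway can run on. Epidermal keratinocytes are known for a high rate of glycolysis even where oxygen is present. The hypoxia-inducible factor HIF-1, a pair of proteins encoded by Hif1a and Arnt, raises the transcription of many glycolytic genes when oxygen is low. With oxygen, the prolyl hydroxylases encoded by the Egln genes mark HIF-1 alpha for destruction. HIF-1 binds a short DNA core, ACGTG or GCGTG, in the hypoxia response elements of its target genes.

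Which group is the numerator is not stated in the expression table, and the direction was read from the sites of the transfected microRNA. The mature strand miR-148a-3p and its relatives miR-148b-3p and miR-152-3p share 1 seed (bases 2 to 8, in capitals), shown here because the seed decides which messages they pair with. Sequences are from RefSeq (GRCm38.p6).
miR-148a-3p: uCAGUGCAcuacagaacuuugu
miR-148b-3p: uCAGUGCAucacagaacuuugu
miR-152-3p: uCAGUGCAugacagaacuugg
Its complement on a message is TGCACTG, called a 7mer-m8 site, or TGCACTGA, called an 8mer. As deposited, the median log2 fold change was 0.11 in 406 tested genes whose longest 3' untranslated region (3' UTR) holds an 8mer and -0.01 in 7770 genes with no site. These groups also differ in 3' UTR length, with medians of 2285 and 896.5 bases. Genes with a 7mer-A1 site (GCACTGA), of median length 2233.5, had a median of 0.04. MicroRNAs lower the transcripts they pair with, so deposited values were read as control over miR-148a, which is how its title is worded, and every sign below is turned to miR-148a over control. All directions given here rest on this reading and would turn together.

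The glycolytic and hypoxia response genes of this list were more often higher than lower with miR-148a, with exceptions at named steps. In the authors' deposited table, 13 of the 28 tested genes rose, 3 fell and 12 did not pass an adjusted p of 0.05. Of all 11035 tested genes 16.7% rose and 16.8% fell. The 13 that rose were the glycolytic enzyme genes Gpi1, Tpi1, Pgk1, Pgam1, Eno1, Pkm and Ldha, the glucose transporter gene Slc2a1, and Bnip3, Ero1l, Ddit4, Ndrg1 and Ankrd37 of the hypoxia response. The 3 that fell were the hexokinase gene Hk2, the lactate and pyruvate transporter gene Slc16a1 and the mitophagy receptor gene Bnip3l. The median log2 fold change of the 28 was 0.23, beside -0.01 over all tested genes. Restricted to base means of 100 or more, the counts were 12 higher and 3 lower of 18, with a median of 0.51. Over all 6420 tested genes at that base mean 26.4% rose and 23.3% fell, with a median of 0.03. The genes were listed with earlier results of these data known, so the counts are given as a description and no test of the list was made. These counts do not stand for the wider classes. Of 49 tested genes on a broader hypoxia list 10 rose and 13 fell. Among 7 tested genes of other glycolytic isozymes and regulators 2 rose and 2 fell.

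**Figure D1:**
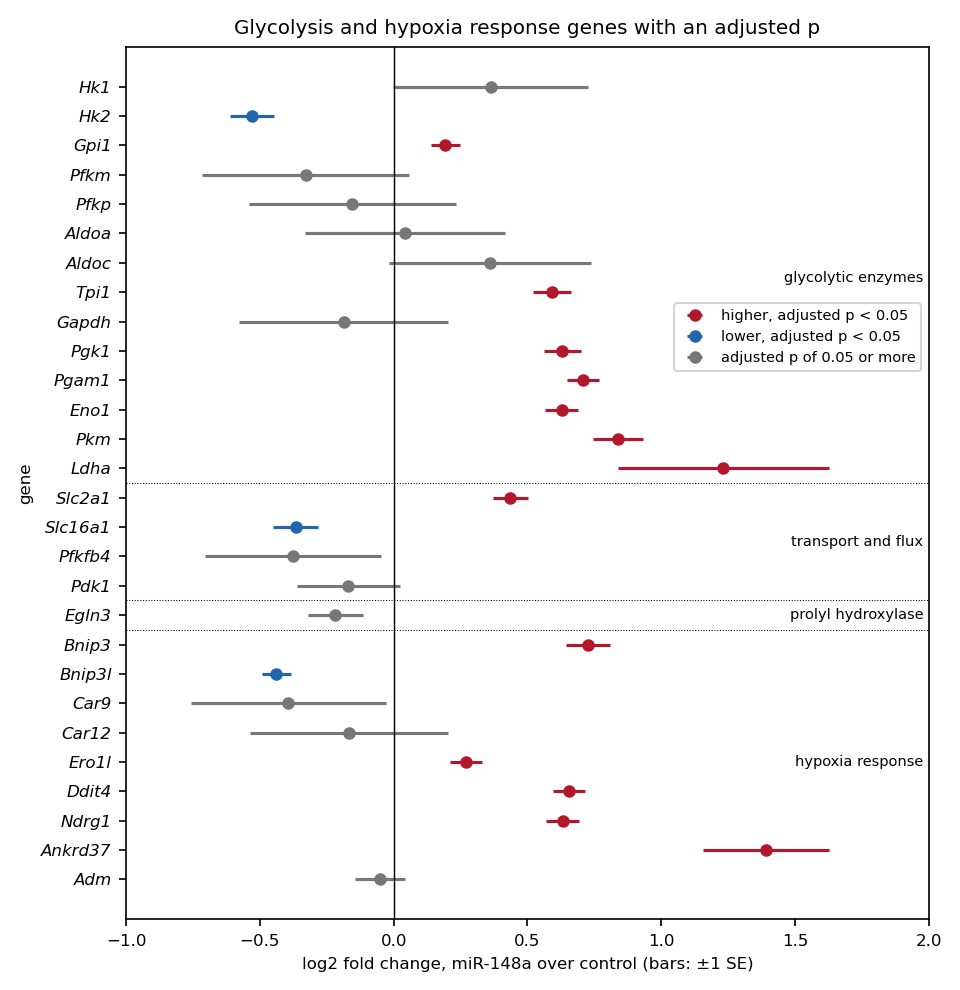
Log2 fold change (miR-148a over control, x axis) of the 28 genes with an adjusted p, by role (y axis); points are the deposited estimates with the sign turned, bars are 1 SE. Red points (13) passed an adjusted p of 0.05 as higher, blue points (3) as lower, and grey points (12) did not pass.

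**Figure D2:**
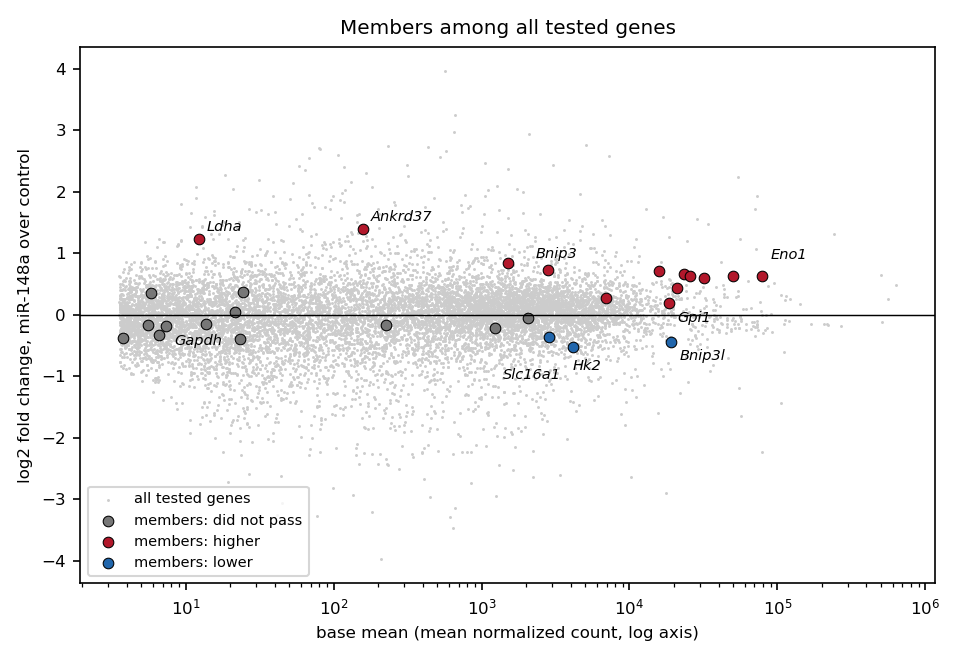
Log2 fold change (y axis) against base mean (x axis, log scale) for all 11035 tested genes in grey and for the 28 in colour. Of the 13 that rose 12 lie above a base mean of 100, and 9 of the 12 that did not pass lie under a base mean of 100.

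Whether a gene of the list could be read at all went with how many RefSeq transcripts it has in the table. All 17 genes with 1 transcript were tested, and 16 of them had a base mean of at least 100, with a median of 15722. Of the 21 genes with 2 or more transcripts 11 were tested, and only 2 (Pkm at 1508 and Pdk1 at 226) reached a base mean of 100 per the authors' deposited table. The median base mean of these 21 was 3.77. Gapdh, the glyceraldehyde-3-phosphate dehydrogenase gene that many laboratories use as a reference for its abundance, stood at a base mean of 7.40 on 1 transcript and 0 on the other per the authors' deposited table. Aldoa, the main aldolase gene outside liver and brain, reached a base mean of 21.5, and Hif1a itself 0.590, per the authors' deposited table. The same held over the table: 34.3% of the 16867 genes with 1 transcript and 7.68% of the 8241 genes with more had a base mean of at least 100. The counting of reads shared by several transcripts was not given in the sources used here, and its part in these values was not tested. Values of genes with several transcripts therefore describe the transcript listed, and a 0 is no measurement of absence. Among the 17 genes with 1 transcript 11 rose and 3 fell, with a median of 0.44, and the other 3 did not pass, while 19.7% of the 8509 tested genes with 1 transcript rose and 19.4% fell.

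**Figure D3:**
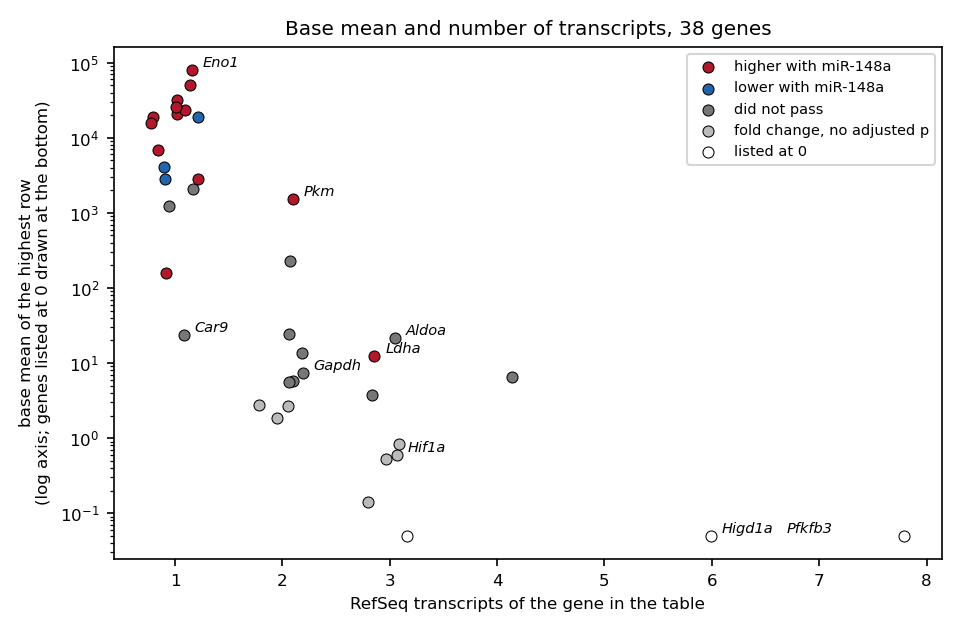
Base mean of the highest row (y axis, log scale, genes listed at 0 drawn at the bottom) against the number of RefSeq transcripts in the table (x axis, points spread sideways for sight) for the 38 genes. Genes with 1 transcript lie at 23.4 to 79294, and of the 21 with more only Pkm and Pdk1 exceed 100.

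Of the enzymes that act after the sugar is split, the 4 with the highest base means rose by 1.51 to 1.63-fold. Tpi1, which interconverts the triose phosphates, rose 1.51-fold (log2 0.59 ± 0.07 SE, adjusted p = 2.59e-15, NM_009415, base mean 31733) per the authors' deposited table. Pgk1, the phosphoglycerate kinase that makes the first ATP of the pathway, rose 1.55-fold (0.63 ± 0.07 SE, adjusted p = 2.32e-18, NM_008828, base mean 49997) per the authors' deposited table. Pgam1, the mutase of the next step, rose 1.63-fold (0.71 ± 0.06 SE, adjusted p = 3.9e-31, NM_023418, base mean 15722) per the authors' deposited table. Eno1, the enolase that follows, rose 1.54-fold (0.63 ± 0.06 SE, adjusted p = 5.53e-22, NM_023119, base mean 79294) per the authors' deposited table. The 4 log2 fold changes thus lie between 0.59 and 0.71, and that of Tpi1, the smallest, exceeds those of 92.5% of all tested genes. Per kb of transcript, the scale on which levels of genes can be compared, the base mean was 39119 for Eno1, 27396 for Pgk1, 19747 for Tpi1 and 8857 for Pgam1. Eno1b, a close copy of Eno1 on another chromosome, rose 1.46-fold (0.55 ± 0.09 SE, base mean 1939) per the authors' deposited table. Reads of Eno1 and Eno1b, and of other glycolytic genes with processed copies in the genome, could be split between copies.

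The last enzymes of the pathway stood on thinner or divided counts. Pkm, pyruvate kinase, makes the isoforms M1 and M2 by using either of 2 exons. Its transcript NM_011099 rose 1.79-fold (0.84 ± 0.09 SE, adjusted p = 2.71e-17, base mean 1508) per the authors' deposited table. The other Pkm transcript, NM_001253883, was at 0.47 ± 0.23 (log2, SE; adjusted p = 0.108, base mean 152) and did not pass per the authors' deposited table. The difference between the Pkm transcripts was 0.37 ± 0.25 (log2, SE, with the 2 errors taken as independent), and its 95% interval of -0.12 to 0.85 includes 0. Ldha, lactate dehydrogenase A, rose 2.35-fold (1.23 ± 0.39 SE, adjusted p = 0.00727) on a transcript with a base mean of 12.2, while its other 2 transcripts were listed at 0 per the authors' deposited table. All 3 transcripts of Ldhb, the second lactate dehydrogenase subunit, were listed at 0.

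The upper part of glycolysis did not move as one. Hk2, the inducible hexokinase that traps glucose as glucose-6-phosphate, fell 1.44-fold (-0.53 ± 0.08 SE, adjusted p = 1.6e-09, NM_013820, base mean 4125) per the authors' deposited table. Gpi1, the isomerase of the next step, rose only 1.14-fold (0.19 ± 0.06 SE, adjusted p = 0.00224, NM_008155, base mean 18647) per the authors' deposited table. Between Pgam1 and Hk2 the log2 fold changes differed by 1.24 ± 0.10 (SE, errors taken as independent), and between Eno1 and Hk2 by 1.16 ± 0.10. These pairs set genes called higher against a gene called lower, so the differences are a description and no further test. Hk1, the hexokinase present in most tissues, was at 0.36 ± 0.36 (log2, SE) with a base mean of 24.6 and did not pass per the authors' deposited table. The phosphofructokinase genes Pfkm and Pfkp, of the committed step, were at -0.33 ± 0.39 and -0.15 ± 0.39 with base means of 6.61 and 13.6 per the authors' deposited table. Pfkl, the liver-type subunit, had a base mean of 2.77 and no adjusted p. The aldolase genes Aldoa and Aldoc were at 0.04 ± 0.37 and 0.36 ± 0.38 per the authors' deposited table. In the lower part, after the sugar is split, Gapdh was at -0.19 ± 0.39 and also did not pass per the authors' deposited table. Eno2, the neuronal enolase of the lower part, had a base mean of 0.139. Standard errors of 0.33 to 0.39 on the log2 scale, as held for the 9 members under a base mean of 100 that did not pass, mean that changes of the size seen in Pgk1 or Eno1 would not pass there.

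The main carriers measured for glucose and for lactate changed in opposite directions. Slc2a1, the glucose transporter GLUT1 of basal keratinocytes, rose 1.35-fold (0.44 ± 0.07 SE, adjusted p = 5.68e-10, NM_011400, base mean 21035) per the authors' deposited table. Slc16a1, the proton-coupled carrier MCT1 for lactate and pyruvate, fell 1.29-fold (-0.37 ± 0.08 SE, adjusted p = 9.29e-05, NM_009196, base mean 2862) per the authors' deposited table. The log2 fold changes of these 2 carriers differed by 0.80 ± 0.11 (SE, errors taken as independent). Because both had been called, in opposite directions, this difference is a description and no further test. Slc16a3, the HIF-responsive lactate exporter MCT4, had a base mean of 0.523 over 3 transcripts and no adjusted p. Pdk1, the kinase that closes the pyruvate dehydrogenase gate to the mitochondria, was at -0.17 ± 0.19 (95% interval -0.55 to 0.21, adjusted p = 0.582, base mean 226) per the authors' deposited table. Pfkfb3 and Pfkfb4 make and remove fructose-2,6-bisphosphate, the activator of phosphofructokinase. All 8 Pfkfb3 transcripts were listed at 0, and Pfkfb4 did not pass at a base mean of 3.77.

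Of the 3 oxygen-sensing genes only Egln3 was well counted. Egln3, a prolyl hydroxylase that HIF itself induces, was at -0.22 ± 0.10 (log2, SE, base mean 1229) and did not pass (adjusted p = 0.0984) per the authors' deposited table. Hif1a, at a base mean of 0.590, and Egln1, the main oxygen sensor among the hydroxylases, at 2.67, had no adjusted p.

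Of the hypoxia response genes on this list 5 of 9 tested rose and 1 fell, beside 16.7% and 16.8% of all tested genes. Of the 7 with base means of 100 or more 5 rose and 1 fell, where 26.4% and 23.3% of all such genes did. A broader list of such genes, given below, went both ways. Ankrd37, a small ankyrin repeat gene known as a HIF-1 target, rose most, by 2.63-fold (1.39 ± 0.24 SE, adjusted p = 3.61e-08, NM_001039562, base mean 158) per the authors' deposited table. It ranks 69th from the top among the 1693 genes that rose at a base mean of at least 100. Ddit4 (REDD1), an inhibitor of mTORC1 induced by hypoxia and by other stresses, rose 1.58-fold (0.66 ± 0.06 SE, adjusted p = 1.9e-27, NM_029083, base mean 23527) per the authors' deposited table. Ndrg1, a differentiation and stress gene of epithelia, rose 1.55-fold (0.63 ± 0.06 SE, adjusted p = 4.85e-22, NM_008681, base mean 25519) per the authors' deposited table. Ero1l, an oxidase that forms disulfide bonds in the endoplasmic reticulum, rose 1.21-fold (0.27 ± 0.06 SE, adjusted p = 3.9e-05, NM_015774, base mean 6974) per the authors' deposited table.

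The 2 related mitophagy receptors moved in opposite directions. Bnip3 rose 1.65-fold (0.73 ± 0.08 SE, adjusted p = 1.47e-17, NM_009760, base mean 2816) per the authors' deposited table. Bnip3l (NIX), its paralog and also a known HIF target, fell 1.35-fold (-0.44 ± 0.05 SE, adjusted p = 2.46e-14, NM_009761, base mean 19202) per the authors' deposited table. Their log2 fold changes differed by 1.16 ± 0.10 (SE, errors taken as independent; 95% interval 0.97 to 1.36). Because both genes had been called, in opposite directions, this difference is a description and no further test. Per kb of transcript the base mean of Bnip3l, 5930, lay above that of Bnip3, 1603.5.

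The remaining hypoxia genes gave no call. Adm, the vasoactive peptide adrenomedullin, had the best measured of these values at -0.05 ± 0.09 (log2, SE, 95% interval -0.23 to 0.13, adjusted p = 0.757, base mean 2073) per the authors' deposited table. The carbonic anhydrase genes Car9 and Car12, which acidify the space outside the cell, were at -0.39 ± 0.36 and -0.17 ± 0.37 with base means of 23.4 and 5.57 per the authors' deposited table. The collagen prolyl hydroxylase genes P4ha1 and P4ha2 had base means of 0.837 and 1.87 and no adjusted p. All 6 transcripts of the mitochondrial gene Higd1a were listed at 0. Of the 16 genes called in either direction 6 overlap another RefSeq gene on the genome (Tpi1, Pkm, Ldha, Slc2a1, Bnip3 and Ankrd37). Use of the strand in counting was not given in the sources used here, so reads of the overlapping genes could be mixed.

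The core of the hypoxia response element was searched in the 250 bases before each annotated start, as ACGTG or GCGTG on either strand (CACGT or CACGC when read on the strand of the gene), with overlapping matches joined. RefSeq promoters (GRCm38.p6) were at hand for 36 of the 38 genes, with 49 starts; Bnip3l and Ndrg1 had no entry. Of these 49 promoters 40 (81.6%) hold a match, against 54.6% of the 10124 promoters of tested genes and 38.6% of all 32851. The list includes known HIF targets by choice, so this share describes the list and is no result of the comparison. Shares count promoters, so a gene with several starts counts more than once. By call, matches were found in 13 of 16 promoters of genes that rose, 2 of 2 of those that fell and 25 of 31 of the others. With ACGTG alone the shares were 49.0% of the promoters in the list and 21.2% of those of tested genes. The 160 bases before the start are shown for genes with 1 promoter that lie on both sides of the comparison, with matches in capitals; the other matches of Slc16a1, Hk2, Pgam1 and Ankrd37 lie further upstream. Bnip3, Ankrd37, Pgam1, Pgk1 and Tpi1 rose, and Hk2 and Slc16a1 fell.
Pgk1 (chrX:106186940-106187099, plus strand): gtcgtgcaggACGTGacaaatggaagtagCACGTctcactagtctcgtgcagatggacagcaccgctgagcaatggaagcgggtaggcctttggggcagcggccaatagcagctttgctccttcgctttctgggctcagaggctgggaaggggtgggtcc
Pgam1 (chr19:41911711-41911870, plus strand): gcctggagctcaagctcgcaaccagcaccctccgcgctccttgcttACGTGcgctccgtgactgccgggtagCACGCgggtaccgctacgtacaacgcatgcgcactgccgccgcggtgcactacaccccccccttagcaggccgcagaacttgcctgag
Tpi1 (chr6:124814159-124814318, minus strand): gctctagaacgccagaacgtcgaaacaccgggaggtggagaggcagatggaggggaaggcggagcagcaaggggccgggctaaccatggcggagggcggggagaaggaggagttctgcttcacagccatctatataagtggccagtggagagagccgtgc
Bnip3 (chr7:138909507-138909666, minus strand): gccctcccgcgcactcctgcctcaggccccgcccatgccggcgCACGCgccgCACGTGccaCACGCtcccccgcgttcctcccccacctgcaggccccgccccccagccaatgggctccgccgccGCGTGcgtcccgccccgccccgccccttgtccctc
Ankrd37 (chr8:45999851-46000010, minus strand): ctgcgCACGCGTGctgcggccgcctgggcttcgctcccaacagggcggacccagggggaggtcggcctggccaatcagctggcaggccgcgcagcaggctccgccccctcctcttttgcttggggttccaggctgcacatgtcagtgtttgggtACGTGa
Hk2 (chr6:82774455-82774614, minus strand): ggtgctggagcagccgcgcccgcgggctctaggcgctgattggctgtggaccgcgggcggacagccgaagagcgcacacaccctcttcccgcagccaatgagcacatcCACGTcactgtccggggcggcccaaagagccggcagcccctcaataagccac
Slc16a1 (chr3:104638504-104638663, plus strand): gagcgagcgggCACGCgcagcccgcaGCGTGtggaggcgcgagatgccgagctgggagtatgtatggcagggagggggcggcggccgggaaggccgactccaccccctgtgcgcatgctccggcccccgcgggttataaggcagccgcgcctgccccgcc
Pgk1 holds 2 matches and Bnip3 4, of which 1 is the palindrome CACGTG that also serves as an E-box. Tpi1, which rose by nearly the amount of Pgk1, has none in the 250 bases, and Hk2 and Slc16a1, which fell, have 2 and 3. A match is a run of letters, and no binding was measured here.

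**Figure D4:**
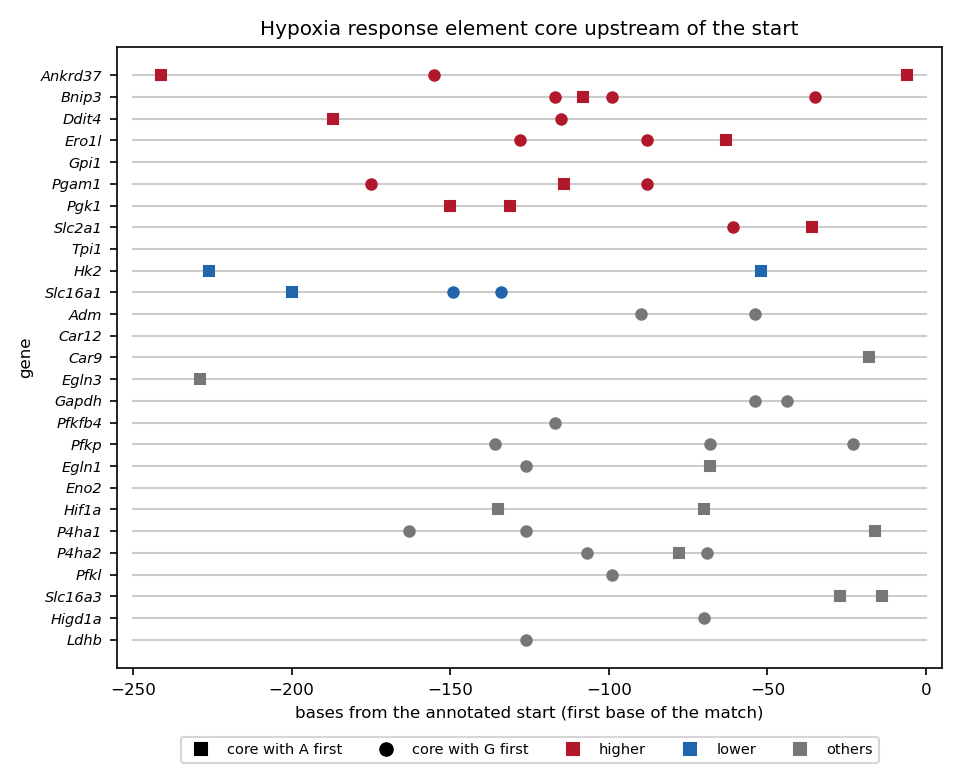
Positions of the core (x axis, bases from the annotated start to the first base of a match) in the members with 1 annotated promoter (y axis); squares hold ACGTG and circles GCGTG, on either strand. Genes that rose (red), fell (blue) or were not called (grey) all include some with 2 or more matches, and Gpi1, Tpi1, Car12 and Eno2 have none.

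The 3' UTRs of the members were searched for sites of miR-148a-3p. Of the 38 longest 3' UTRs, 7 (18.4%) hold an 8mer, a 7mer-m8 or a 7mer-A1 site, against 21.3% of the 9871 tested genes with an annotated 3' UTR. None of the 3 genes that fell has one, and 3 that rose do. Their sites are shown with 8 bases on each side and the site in capitals, since these are the genes that both rose and hold a match.
Slc2a1 (8mer, base 647 of 1537): gtctcctgTGCACTGAgggccaca
Gpi1 (7mer-m8, base 50 of 1084): tcaccataTGCACTGcatggtcc
Ddit4 (7mer-m8, base 367 of 867): agctggtcTGCACTGgcctctgc
Car12 has an 8mer and Aldoc, Pfkfb4 and Pdk1 a 7mer-m8 site, Pdk1 in 2 places, and none of these 4 passed the test. Positions count from 1 at the base after the stop codon in GENCODE M21.

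Pathways that branch from or follow glycolysis were read with lists of other genes. In the pentose phosphate pathway, which draws on glucose-6-phosphate to make NADPH and ribose, 4 of 8 tested genes rose and none fell. G6pdx, its entry enzyme, rose 1.82-fold (0.86 ± 0.06 SE, adjusted p = 1.22e-40), and Taldo1 (0.58 ± 0.06 SE) and Tkt (0.52 ± 0.06 SE) of its later steps also rose per the authors' deposited table. In the pyruvate dehydrogenase list 4 of 12 rose and 1 fell: the complex subunits Dlat (0.33 ± 0.07 SE) and Pdhx (0.42 ± 0.10 SE) rose, and Pdk4, the fasting-induced kinase that inhibits the complex, fell 4.54-fold (-2.18 ± 0.30 SE, adjusted p = 4.97e-12, base mean 69.4) per the authors' deposited table. In the tricarboxylic acid cycle 4 of 13 rose and none fell, with Sdha at 0.43 ± 0.06 and Idh3a at 0.32 ± 0.07 (log2, SE) per the authors' deposited table. These counts stand beside 16.7% higher and 16.8% lower over all tested genes. At base means of 100 or more the genes that rose were 4 of 5 in the pentose phosphate list, 4 of 9 in the pyruvate dehydrogenase list and 4 of 11 in the tricarboxylic acid list. Of all genes at that base mean 26.4% rose and 23.3% fell. The median there was 0.06 for the tricarboxylic acid list and 0.03 for all tested genes.

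Isozymes and carriers outside the list also divided. Pgam2, the muscle mutase, rose 1.68-fold (0.75 ± 0.15 SE, base mean 321) and Pfkfb2, another enzyme of fructose-2,6-bisphosphate, 1.90-fold (0.93 ± 0.09 SE, base mean 3614) per the authors' deposited table. Ldhd, the D-lactate dehydrogenase, fell 1.92-fold (-0.94 ± 0.26 SE, base mean 76.5) per the authors' deposited table. Among 8 tested carriers Slc2a3, the high-affinity glucose transporter GLUT3, rose 1.82-fold (0.86 ± 0.14 SE) and Emb, a chaperone of monocarboxylate carriers, fell 1.35-fold (-0.44 ± 0.08 SE) per the authors' deposited table. The other 6 of these 8 carriers outside the list did not pass. Among them were Slc2a10 (-0.21 ± 0.34), Slc2a12 (0.03 ± 0.21), Slc2a13 (-0.42 ± 0.34) and Bsg (-0.02 ± 0.32, log2, SE) per the authors' deposited table. The shares were 12.5% higher and 12.5% lower for these carriers. For the 7 tested isozymes and regulators they were 28.6% and 28.6%. Over all tested genes 16.7% rose and 16.8% fell, so these counts are not read as a shift.

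Other genes of the hypoxia response went both ways. Of 49 tested genes on a broader list 10 rose (20.4%), 13 fell (26.5%) and the other 26 did not pass, beside 16.7% and 16.8% over all tested genes; the median was -0.08. Of its 30 genes with base means of 100 or more 9 rose and 13 fell (median -0.20), where 26.4% and 23.3% of all such genes did (median 0.03). The largest changes were rises of Edn2, the peptide endothelin 2 (7.81-fold), the VEGF receptor gene Flt1 (3.69-fold, base mean 50.5) and Selenbp1 (3.41-fold) per the authors' deposited table. Several further genes, chosen after their values were seen, are known to be induced by HIF in many cells. Bhlhe40, a circadian and hypoxia-induced repressor, fell 2.09-fold (-1.06 ± 0.08 SE) and the lipid droplet gene Plin2 2.34-fold (-1.23 ± 0.09 SE) per the authors' deposited table. Mxi1, a MYC antagonist, rose 1.69-fold (0.75 ± 0.11 SE) and the heme oxygenase gene Hmox1, which oxidative stress also induces, 2.39-fold (1.26 ± 0.06 SE) per the authors' deposited table. All 10 transcripts of Vegfa were listed at 0. Of 16 tested core regulators of the HIF pathway 14 did not pass, 2 rose and none fell. Those that rose were Cited2, a HIF-induced competitor for p300 (0.46 ± 0.07 SE), and Rbx1, a subunit of the ubiquitin ligase that removes HIF (0.32 ± 0.07 SE), per the authors' deposited table. Epas1, encoding HIF-2 alpha, was at -0.14 ± 0.09 (adjusted p = 0.276) and the ligase subunit gene Vhl at -0.23 ± 0.12 (adjusted p = 0.135), both named after their values were seen, per the authors' deposited table.

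**Figure D5:**
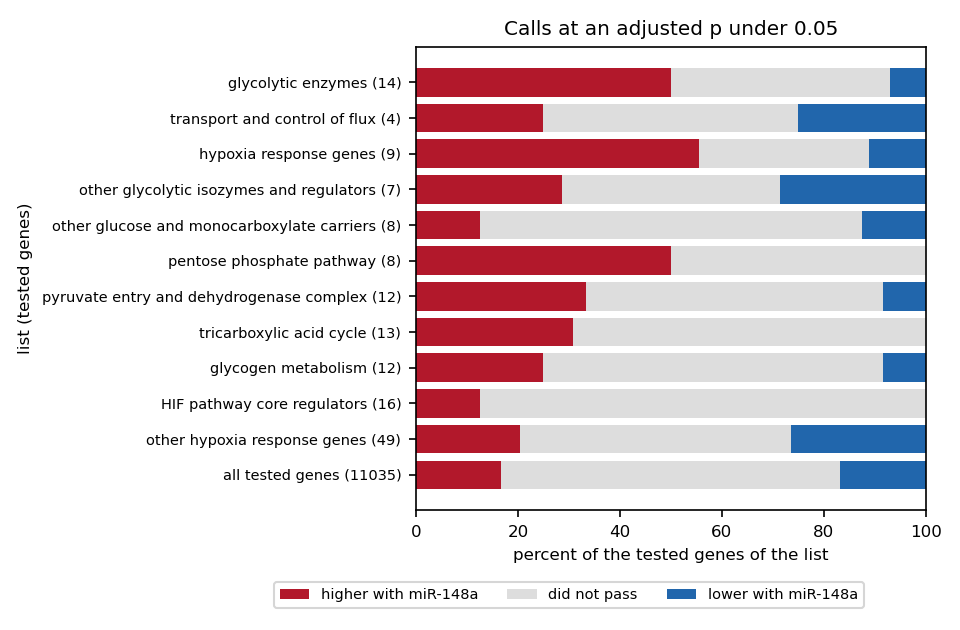
Percent of the tested genes of each list (x axis) that were higher (red), lower (blue) or did not pass (grey) at an adjusted p under 0.05; the number tested is in brackets on the y axis. Glycolytic enzymes (7 of 14), hypoxia response genes (5 of 9) and the pentose phosphate pathway (4 of 8) show the largest red shares of the lists drawn, which include no cell type markers, and the broader hypoxia list shows 10 of 49 red and 13 of 49 blue.

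The GO table that the authors deposited was searched for categories of glycolysis, hypoxia, glucose, pyruvate and lactate, and 5 matched. None of the 5 named glycolysis or lactate, so they give no result for glycolysis as a category. All but response to hypoxia held only 1 or 2 genes. Response to hypoxia held 2 changed genes of 16, with an over-representation p adjusted to 1 in the authors' deposited table of categories. Glucose metabolic process held 1 changed gene of 1, also with an adjusted p of 1. The phosphopyruvate hydratase (enolase) complex held 0 changed genes of 2, although Eno1 passes in the expression table. How changed genes were chosen for the GO table was not given in the sources used here.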

How the data were processed

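RNA sequencing libraries of keratinocytes, 3 control and 3 with miR-148a, were grouped by treatment label. Per the submitters' processing notes DESeq2 and build mm9 were used, with no version or role. Aligner, counter and annotation: not given in the sources used here. The authors deposited, for each transcript, the mean normalized count as a signal (base mean), a log2 fold change with its standard error, a Wald score and raw and adjusted p-values. The deposited GO table gives p-values and numbers of changed genes per category.

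Of 42885 transcripts 42734 were paired with symbols by RefSeq accession (GRCm38.p6). Those with a base mean under 3.56 have no adjusted p. Adjusted p-values match a Benjamini-Hochberg adjustment over 11757 transcripts (largest relative difference 0.00885). The standard error never exceeded 0.39, even at the lowest base means, so folds of weakly counted genes may be shrunken toward 0. With no value per library no differential test was run, and genes were called at the deposited adjusted p under 0.05. A recentred Wald test (scipy 1.17.1) was an alternative, tested on simulated data; others were a stricter threshold, a base mean or fold minimum, all transcripts, and adjustment over 1 transcript per gene. Longest 3' UTRs (GENCODE M21, at least 20 bases) and RefSeq promoters were searched in Python 3.11.15. No coordinate of mm9 was combined with GRCm38. Genes and lists were chosen with earlier results of these data known. All 38 members are named, and of each other list at most the 3 called genes of largest change (with none called, the most abundant); a gene that this rule names may be not reported here.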

Additional observations from a re-analysis of the deposited data

How the results depend on the processing

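The count of genes that rose was 13 over all tested transcripts of the members, after recentring on the median of all tested genes, at an adjusted p of 0.01 and with adjustment over 1 transcript per gene; it was 12 at a base mean of at least 100, 11 over genes with 1 transcript and 10 with a change of at least 1.5-fold. The count that fell was 3 under these settings, except that it was 0 with at least 1.5-fold, as the largest of the 3 falls, that of Hk2, was 1.44-fold. The median log2 fold change of the members, 0.23, was 0.12 over all tested transcripts, 0.12 over members with any fold change, 0.24 after recentring, 0.51 at a base mean of at least 100 and 0.44 over genes with 1 transcript, the last setting being chosen after seeing the data; all but the recentred value differ in which genes or transcripts are counted. The share of all tested genes called, 33.5%, was 26.1% at an adjusted p of 0.01. Read with 7mer-m8 instead of 8mer sites, the difference in medians behind the direction was 0.06 instead of 0.12. Leaving out each replicate was not run, and no paired analysis was possible because the columns used carry no value per library. Depth is unknown, and the standard error limits what could be seen in genes under a base mean of 100.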

Other observations

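Glycogen metabolism and gluconeogenesis, which store and rebuild glucose, went both ways. Of 12 tested glycogen genes 3 rose and 1 fell: the branching enzyme gene Gbe1 rose 1.74-fold (0.80 ± 0.11 SE), Pgm1, which links glycogen to glucose-6-phosphate, 1.40-fold (0.48 ± 0.08 SE), and the phosphorylase gene Pygb fell 1.28-fold (-0.36 ± 0.10 SE) in the authors' deposited table. Of 4 tested gluconeogenesis genes G6pc3 rose 1.54-fold (0.62 ± 0.10 SE) and Pck2, the mitochondrial enzyme that makes phosphoenolpyruvate, fell 1.28-fold (-0.36 ± 0.10 SE) in the authors' deposited table. Among 10 tested transcription factors that act on glycolytic genes Klf4 rose (0.25 ± 0.07 SE), and Foxk1 (-0.34 ± 0.07 SE), a regulator that favours aerobic glycolysis, and Mxd4 (-0.29 ± 0.10 SE) fell in the authors' deposited table. All 4 transcripts of Myc were listed at 0. Over all tested genes 16.7% rose and 16.8% fell, so the counts of these 3 lists are not read as a shift.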
